A study of Mus musculus with 4 samples.

Results

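The 9 genes described here encode peroxins, the proteins that build and divide peroxisomes, and ABC transporters of the peroxisomal membrane: Pex3, Pex5, Pex7, Pex11a, Pex14, Pex16, Pex19, Abcd2 and Abcd3. They were chosen by name, as every probe set whose single gene symbol in the platform annotation was one of these, which gave 14 probe sets of the 22626 that are not controls, for 9 of 12393 genes. Messenger RNA was measured on Affymetrix mouse expression arrays in liver of adult male C57BL6 mice, killed on day 6 after injection of an adenovirus. The Ad-lipin group (2 arrays) received adenovirus for mouse lipin 1beta, a phosphatidate phosphatase that also acts in the nucleus with PPAR alpha. The GFP control group (2 arrays) received adenovirus for green fluorescent protein, so both groups carry a viral vector. The sources used here give neither the dose nor the promoter of the vectors. The labels do not state whether each array had a mouse of its own, so p-values reflect only how these samples vary, possibly through technical steps alone. The labels give polyA RNA for Ad-lipin replicate 2 and total RNA for the other 3 arrays.

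Peroxisomes are organelles without DNA, bounded by a single membrane, and all of their proteins are made in the cytosol and imported. Pex3, Pex16 and Pex19 insert the membrane proteins, Pex5 and Pex7 bring in matrix enzymes through a docking complex that contains Pex14, and proteins of the Pex11 family elongate the membrane before division. The ABC transporters work as pairs of subunits and move fatty acyl-CoA into the organelle for beta-oxidation. In rodent liver, PPAR alpha agonists are known to make peroxisomes multiply and to induce Pex11a and several enzymes inside the organelle. The comparison asks whether these transcripts differed between livers given lipin 1beta and livers given GFP.

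The signals are linear MAS5 intensities in arbitrary units, with the same trimmed mean on every array. The arrays differed in other respects. GFP replicate 2 correlated least with the others (0.731 on average, where the rest reached 0.781 to 0.793). The 3' to 5' ratio of beta-actin, a measure of RNA integrity, was 2.85 and 2.86 in Ad-lipin replicates 1 and 2, against 1.77 and 4.22 in GFP replicates 1 and 2. Both probe sets of Lpin1, the overexpressed gene, had Ad-lipin replicate 1 within or below the range of the GFP arrays: 2260.5 in Ad-lipin replicate 1 against 2730 and 1430 in GFP replicates 1 and 2, and 3854 against 7082 and 4632. Ad-lipin replicate 2 exceeded both GFP arrays on both probe sets, at 6719 and 11087. The arrays labelled Ad-lipin are therefore called that by their labels. The liver label was checked with hepatocyte markers, and all 7 measured of the 8 listed, such as Alb and Ttr, lay above the floor of 119.5 (the 20th percentile of all signals) on every array. Their summed signal was 2223860 and 2722320 in Ad-lipin replicates 1 and 2, against 1584580 and 3398180 in GFP replicates 1 and 2. The 6 measured lymphocyte and NK cell markers, of 7 listed, summed to 3785 and 3457.5 in the Ad-lipin arrays and 4919 and 5298 in the GFP arrays, and none was at or below the floor on all arrays. The sums did not overlap between groups, but only Cd79a and Cd8a of these markers were lower in both Ad-lipin arrays, and the other 4 overlapped. The summed markers of 5 other cell types (macrophages, endothelial cells, stellate cells, cholangiocytes and adipocytes) overlapped between groups. Whether other cell types or RNA quality contribute to the values below was not tested, and in whole liver fewer cells of a type and less RNA per cell cannot be told apart.

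None of the peroxin or transporter transcripts passed the test between Ad-lipin and GFP livers. Pex5, Pex14 and Pex16 each had a probe set in which both Ad-lipin arrays stood above both GFP arrays, by about the same factor, 1.61 to 1.62. These were 3 of the 13 tested probe sets, against 17.1% of all tested, a share that would give 2.22 of 13. The dimmer Pex5 and Pex16 probe sets overlapped between groups. The brighter Pex11a probe set was the single tested one with both Ad-lipin arrays below both GFP arrays, at 0.882 of the GFP level. That is 1 of the 13, against 15.9% of all tested. Abcd3 gave the brightest signal of the set and Abcd2 was below the floor on every array. Of the 14 probe sets, 13 were bright enough to test (a geometric mean signal of at least 373), and 0 of these 13 passed limma's adjusted p of 0.05, as did 0% of all 13576 probe sets tested. At an unadjusted p under 0.05 there were also 0 of 13, against 4.39% of all tested (2.47% higher and 1.92% lower). With 2 arrays against 2, an exact permutation test of a single probe set cannot go below p = 0.333, two-sided.

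**Figure D1:**
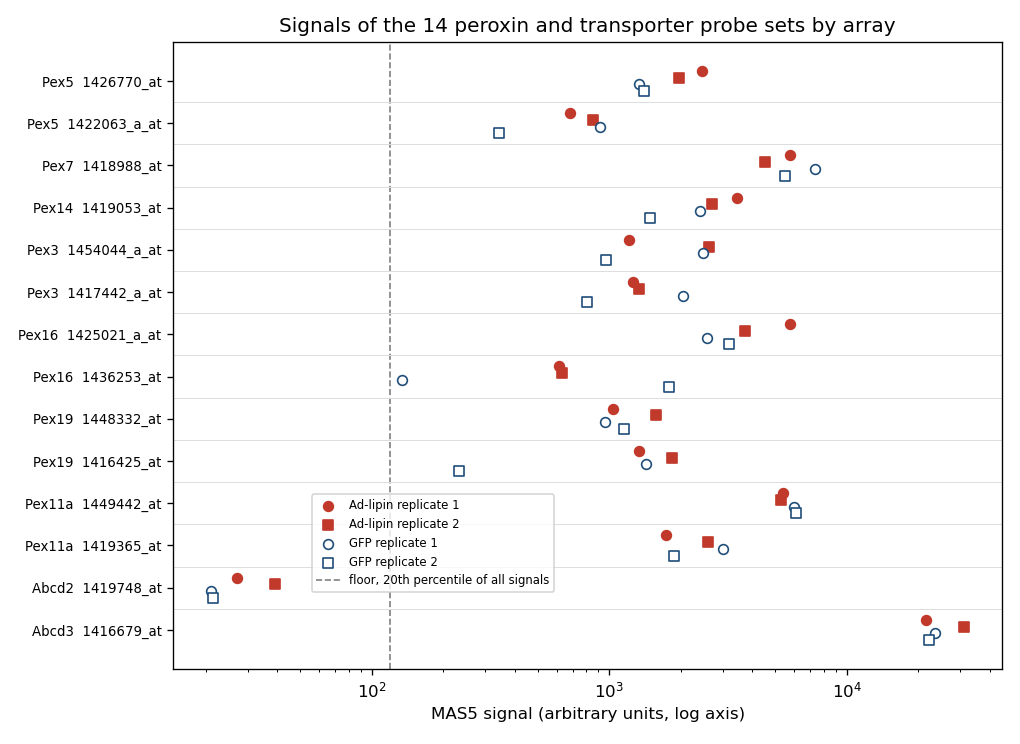
MAS5 signal (x axis, arbitrary units, log scale) of the 14 probe sets (rows) on each array, with filled red symbols for Ad-lipin, open blue symbols for GFP, circles for replicate 1 and squares for replicate 2; the dashed line is the floor of 119.5. Signals run from 21.0 (Abcd2, GFP replicate 1) to 31238 (Abcd3, Ad-lipin replicate 2), and in 9 of the 13 tested rows the red and blue symbols overlap in range.

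Pex5 is the cytosolic receptor that recognises the carboxy-terminal targeting signal of most matrix enzymes. Its brighter probe set (1426770_at) read 2448 and 1971 in Ad-lipin replicates 1 and 2, against 1328 and 1393.5 in GFP replicates 1 and 2. Both Ad-lipin arrays exceeded both GFP arrays, and the log2 difference was 0.69 ± 0.50 (limma SE, n = 2 per group; adjusted p = 0.962), with a 95% interval that runs in fold terms from 0.773 to 3.37. The dimmer probe set (1422063_a_at) read 682.5 and 850.6 in the Ad-lipin arrays against 912.7 and 343.1 in the GFP arrays. Here GFP replicate 1 was the highest array and GFP replicate 2 the lowest, so the Ad-lipin arrays lay between them. Its log2 difference was 0.45 ± 0.94, and -0.26 without GFP replicate 2.

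Pex7 is the receptor for the smaller class of enzymes with an amino-terminal signal, among them phytanoyl-CoA hydroxylase, and in mammals it travels with the long form of Pex5. Its single probe set (1418988_at) read 5783 and 4542 in Ad-lipin replicates 1 and 2, against 7342 and 5512 in GFP replicates 1 and 2. Ad-lipin replicate 1 exceeded GFP replicate 2, so the groups overlapped. The log2 difference of -0.31 ± 0.35 was the lowest among the 13 tested probe sets (adjusted p = 0.962, fold 0.806 with a 95% interval of 0.478 to 1.36). Leaving out each array in turn gave -0.52 to -0.10, the ends without GFP replicate 2 and without GFP replicate 1.

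Pex14 forms the docking site where loaded receptors meet the membrane. Its probe set (1419053_at) read 3448 and 2704 in Ad-lipin replicates 1 and 2, against 2413 and 1486 in GFP replicates 1 and 2. The groups did not overlap, though Ad-lipin replicate 2 was closer to GFP replicate 1 than GFP replicate 1 was to GFP replicate 2. The means were 3076 ± 527 in Ad-lipin and 1950 ± 655 in GFP (SD, n = 2 each), a log2 difference of 0.69 ± 0.45 (limma adjusted p = 0.962). Leaving out GFP replicate 2 gave 0.34 and leaving out GFP replicate 1 gave 1.04.

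Pex3, Pex16 and Pex19 act together: Pex19 binds newly made membrane proteins in the cytosol, Pex3 anchors Pex19 at the peroxisome, and Pex16 recruits Pex3. The brighter Pex3 probe set (1454044_a_at) read 1209 and 2631 in Ad-lipin replicates 1 and 2, against 2474 and 967.6 in GFP replicates 1 and 2. The other (1417442_a_at) read 1257 and 1328 in the Ad-lipin arrays against 2044 and 806.1 in the GFP arrays. In both, GFP replicate 2 was the lowest array, and the spread within GFP was wider than the difference between groups. The log2 differences were 0.20 ± 0.60 and 0.0093 ± 0.62, and both turned negative without GFP replicate 2 (-0.47 and -0.66) and without Ad-lipin replicate 2 (-0.36 and -0.031).

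The brighter Pex16 probe set (1425021_a_at) had the smallest unadjusted p of the 13, 0.102 by limma. It read 5788 and 3720 in Ad-lipin replicates 1 and 2, against 2571 and 3199 in GFP replicates 1 and 2, and the groups did not overlap. The means were 4754 ± 1463 in Ad-lipin and 2885 ± 444 in GFP (SD, n = 2 each), a log2 difference of 0.69 ± 0.40 (adjusted p = 0.962, 0.898-fold to 2.91-fold). It was 0.38 without Ad-lipin replicate 1 and 1.01 without Ad-lipin replicate 2. The dimmer Pex16 probe set (1436253_at) read 612.3 and 630.1 in the Ad-lipin arrays against 134.3 and 1779 in the GFP arrays. The Ad-lipin arrays were almost equal and both lay between the far lower GFP replicate 1 and the higher GFP replicate 2, and the log2 difference of 0.35 ± 1.24 had the largest error of the set. Leaving out GFP replicate 1 gave -1.52 and leaving out GFP replicate 2 gave 2.21.

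Pex19 gave the largest log2 difference of the tested members, and it rested on 1 array. The probe set 1416425_at read 1328 and 1843 in Ad-lipin replicates 1 and 2, against 1426 and 231.7 in GFP replicates 1 and 2. Only GFP replicate 2 was low, since GFP replicate 1 exceeded Ad-lipin replicate 1. The log2 difference was 1.44 ± 0.84 (limma adjusted p = 0.962), and 0.13 without GFP replicate 2. The second Pex19 probe set (1448332_at) did not show the low value: it read 1036 and 1573 in the Ad-lipin arrays against 959.3 and 1157 in the GFP arrays, a log2 difference of 0.28 ± 0.62, or -0.025 without Ad-lipin replicate 2.

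Pex11a, which elongates the membrane and in rodents is induced by PPAR alpha agonists, had a log2 difference below 0 on both of its probe sets. The brighter probe set (1449442_at) read 5390 and 5303 in Ad-lipin replicates 1 and 2, against 6003 and 6121 in GFP replicates 1 and 2. It was the most repeatable of the set: its means were 5346 ± 61.7 in Ad-lipin and 6062 ± 83.5 in GFP (SD, n = 2 each), and the groups did not overlap. The log2 difference was -0.18 ± 0.34 (limma adjusted p = 0.968), and leaving out each array in turn gave -0.20 to -0.17. The standard error is far wider than the spread of these arrays because limma draws the spread of each probe set towards that of others of like brightness. The 95% interval reached from 0.535-fold to 1.45-fold. The dimmer probe set (1419365_at) read 1727 and 2609 in the Ad-lipin arrays against 3006 and 1872 in the GFP arrays. These groups overlapped, and the log2 difference of -0.16 ± 0.47 turned positive without Ad-lipin replicate 1 (0.14) and without GFP replicate 1 (0.18). Beside this, the probe set of Ppara read 5452 and 13121 in Ad-lipin replicates 1 and 2, against 1688 and 1695 in GFP replicates 1 and 2, a log2 difference of 2.32 ± 0.44 that did not pass either (limma adjusted p = 0.660). Ppara passed with the replicate number as a block (limma adjusted p = 8.67e-06) and without Ad-lipin replicate 1 (adjusted p = 0.00116), fits in which the spread came from the intensity trend alone, and across the other alternatives its adjusted p ran from 0.188 to 1.00.

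Abcd3 imports branched-chain and dicarboxylic acyl-CoA and bile acid intermediates and is among the most abundant proteins of the hepatic peroxisomal membrane. Its probe set (1416679_at) read 21644 and 31238 in Ad-lipin replicates 1 and 2, against 23461 and 22125 in GFP replicates 1 and 2. Ad-lipin replicate 2 was the highest array and Ad-lipin replicate 1 the lowest, so both GFP arrays lay between them. The log2 difference was 0.19 ± 0.33 (limma adjusted p = 0.965, 0.702-fold to 1.85-fold), and -0.074 without Ad-lipin replicate 2. Abcd2 handles very long-chain and polyunsaturated acyl-CoA and is known for expression in fat and brain. Its probe set (1419748_at) read 27.1 and 39.1 in Ad-lipin replicates 1 and 2, against 21.0 and 21.5 in GFP replicates 1 and 2. Both Ad-lipin values exceeded both GFP values, but all 4 were under the floor, so no fold change is given and the probe set was not tested.

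**Figure D2:**
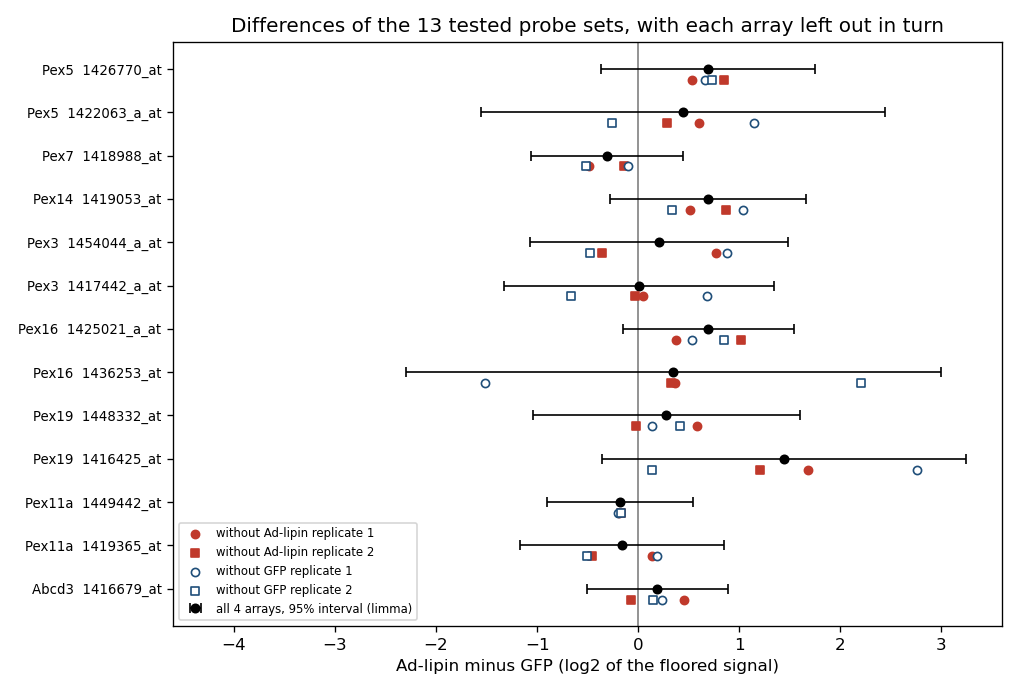
Log2 difference, Ad-lipin minus GFP (x axis), of the 13 tested probe sets (rows): black points with 95% intervals are from all 4 arrays, and the symbols below them leave out 1 array each. Every interval includes 0, and the widest, for the dimmer Pex16 probe set, runs from -2.30 to 2.99.

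The peroxin genes with a pair of tested probe sets allow a check of the signals within a gene. In all 5 of them (Pex3, Pex5, Pex11a, Pex16 and Pex19) both probe sets had a log2 difference of the same sign, though the dimmer Pex3 value was only 0.0093 ± 0.62. Both probe sets of a gene were read on the same 4 arrays, and the share of such pairs over all genes is not given here. They matched less well array by array: the lowest array was the same for both probe sets in 2 of 5 genes, Pex3 and Pex16, and the highest array in 1, Pex19. GFP replicate 2 was the lowest array for 5 of the 13 probe sets, against 29.1% of all probe sets tested. It was the highest array for 2 of the 13, against 33.5% of all tested. The median deviation from the probe set means was 0.018 and 0.19 in Ad-lipin replicates 1 and 2, against 0.077 and -0.26 in GFP replicates 1 and 2. GFP replicate 2 also had the highest 3' to 5' actin ratio, and its part in the low values was not tested.

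**Figure D3:**
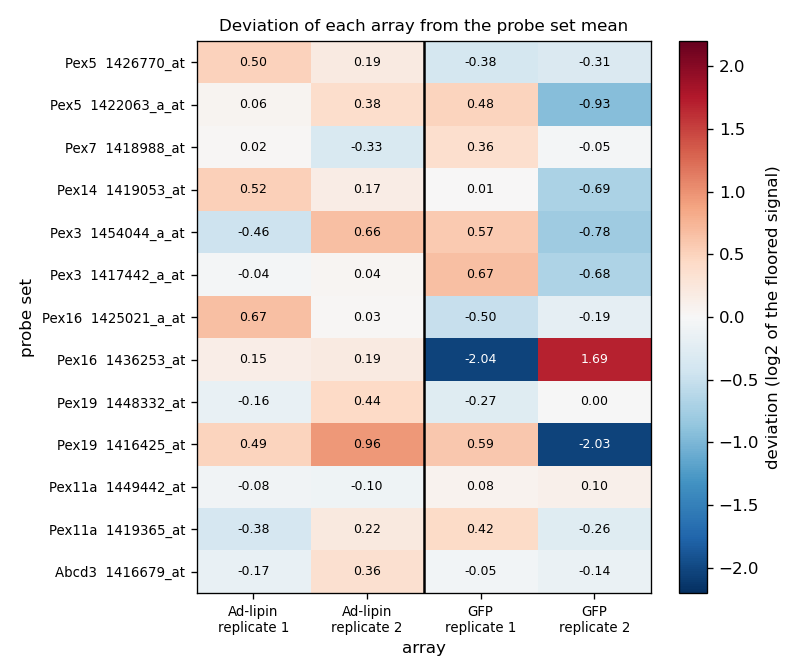
Deviation of each array (columns) from the mean of its probe set (rows), on the log2 scale of the floored signal, red above and blue below the mean, for the 13 tested probe sets. The deepest colours are the -2.04 and 1.69 of GFP replicates 1 and 2 in the dimmer Pex16 probe set and the -2.03 of GFP replicate 2 in Pex19, while the brighter Pex11a probe set stays between -0.10 and 0.10.

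Over the 13 tested probe sets, the log2 differences ran from -0.31 to 1.44 with a median of 0.28, and 10 lay above 0 (6 without Ad-lipin replicate 2 and 7 without GFP replicate 2). Over all 13576 probe sets tested the median was 0.0038 and 50.3% lay above 0. Both Ad-lipin arrays stood above both GFP arrays in 3 of the 13 and below them in 1, against 17.1% and 15.9% of all probe sets tested (33.0% in either direction), shares that would give 2.22 and 2.07 of 13. The median was -0.025 without Ad-lipin replicate 2 and 0.54 without GFP replicate 1. In 7 of the 13 the difference between groups was smaller than the pooled SD of the arrays within groups.

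The windows upstream of Pex14, Pex16 and Pex11a are shown as examples of genes with a probe set that separated the groups, the only Pex14 probe set and the brighter Pex16 one with the Ad-lipin arrays above, and the brighter Pex11a one with them below. The dimmer Pex16 and Pex11a probe sets overlapped. Pex5, whose brighter probe set also separated the groups, has several windows, which are not printed. The printed windows are the 250 bases before the annotated gene start in RefSeq (GRCm38.p6), which listed windows for 7 of the 9 genes, 11 windows in all. Capitals mark matches, on either strand, to the GC box GGGCGG, the CCAAT box CCAAT, the TATA box TATAAA or the ETS core CCGGAAG. The first of the Pex16 windows is printed. The matches do not overlap each other.
Pex14 (GRCm38.p6, chr4:149099844-149100093, minus strand): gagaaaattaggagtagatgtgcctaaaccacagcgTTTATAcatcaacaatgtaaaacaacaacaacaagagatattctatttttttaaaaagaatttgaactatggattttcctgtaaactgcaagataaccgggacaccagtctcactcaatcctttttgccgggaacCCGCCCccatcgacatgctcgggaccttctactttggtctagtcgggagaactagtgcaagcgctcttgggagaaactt
Pex16 (GRCm38.p6, chr2:92374426-92374675, plus strand): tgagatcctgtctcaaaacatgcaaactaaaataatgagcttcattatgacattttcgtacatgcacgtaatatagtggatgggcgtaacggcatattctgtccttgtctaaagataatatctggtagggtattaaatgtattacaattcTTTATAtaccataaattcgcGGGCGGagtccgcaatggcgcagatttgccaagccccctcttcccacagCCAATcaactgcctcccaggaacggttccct
Pex11a (GRCm38.p6, chr7:79743132-79743381, minus strand): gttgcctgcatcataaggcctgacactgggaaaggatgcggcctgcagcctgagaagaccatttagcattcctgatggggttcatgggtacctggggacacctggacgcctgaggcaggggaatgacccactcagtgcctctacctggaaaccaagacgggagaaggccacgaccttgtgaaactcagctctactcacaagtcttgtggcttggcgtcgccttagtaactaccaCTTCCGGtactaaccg
The Pex14 window matched the GC box sequence starting 79 bases before the gene start and the TATA box sequence 214 bases before it. Both matches were on the strand opposite to the gene. The printed Pex16 window matched the TATA box, GC box and CCAAT box sequences at 100, 80 and 31 bases before the start. Its TATA match was on the strand opposite to the gene, and the other matches were on the strand of the gene. The second Pex16 window, not printed, held no match to any of the motifs. The Pex11a window matched the ETS core 16 bases before the start, on the strand opposite to the gene. Of all 32851 windows of this length, 32.7% held a GC box, 33.8% a CCAAT box, 12.4% a TATA box and 6.91% an ETS core. The nuclear receptor motif AGGTCA, found in 14.0% of all windows, and the DR1 element, a direct repeat of it with a spacer of a single base, bound by PPAR with its partner RXR, found in 0.0335%, had no match in any of the 11 windows, which says only that these letters are not there.

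Of 11 other peroxins and ABC transporters of the family listed, 5 were tested and 0 passed the limma threshold in either direction. The median log2 difference was -0.51, and 1 of the 5 lay above 0, against 50.3% of all probe sets tested. The median ran from -0.53 to -0.37 with an array left out. It was -0.35 with the filter at the 60th percentile. Each gene was counted by its brightest tested probe set alone. In 3 of the 5 both Ad-lipin arrays lay below both GFP arrays, against 15.9% of all tested, and Pex2 and Pex13 overlapped. Pex6, an ATPase that helps to pull Pex5 back out of the membrane, gave -0.53 ± 0.36 on its brightest probe set (1454738_x_at). That probe set read 4247 and 3558 in Ad-lipin replicates 1 and 2 against 5878 and 5369 in GFP replicates 1 and 2. The other 4 Pex6 probe sets ran from -0.82 to 0.68, so they did not share a direction, and the median and counts of the list leave them out. The highest of these (1451226_at) separated the groups the other way, with 3973 and 3206 in the Ad-lipin arrays against 2038 and 2424 in the GFP arrays. Of the rest, 1424078_s_at had both Ad-lipin arrays below both GFP arrays, and 1438138_a_at and 1456302_at overlapped. Pex26, the membrane anchor of that ATPase, read 826.0 and 911.6 in the Ad-lipin arrays against 1119.5 and 1370.5 in the GFP arrays (-0.51 ± 0.65). Pex13, which docks receptors beside Pex14, gave -0.19 ± 0.36 (0.14 without Ad-lipin replicate 2), and Pex2, a ubiquitin ligase of receptor recycling, 0.35 ± 0.47 (0.039 without Ad-lipin replicate 2). Abcd4, a relative of the peroxisomal transporters that works in lysosomes, read 236.0 and 138.4 in the Ad-lipin arrays against 880.9 and 1344.5 in the GFP arrays, which gave -2.59 ± 1.26 on the log2 scale (limma adjusted p = 0.962), while its dimmer probe set gave -1.41 ± 1.43 with groups that overlapped.

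Of 9 other genes of the peroxisomal membrane and of fission, 8 were tested, 0 passed in either direction, and the median log2 difference was 0.26, with 0.059 without Ad-lipin replicate 1, 0.092 without GFP replicate 2 and 0.43 without GFP replicate 1. Slc25a17, a peroxisomal carrier of coenzyme A and nucleotides, had the smallest p of all the peroxisomal genes listed. It read 1877.5 and 1976 in Ad-lipin replicates 1 and 2, against 630.2 and 149.2 in GFP replicates 1 and 2. Both Ad-lipin arrays were close to each other and above both GFP arrays, which gave a log2 difference of 2.65 ± 0.88 (limma adjusted p = 0.962), or 1.61 without GFP replicate 2. Pxmp2, a channel protein of the membrane, gave 0.43 ± 0.33 (0.19 without Ad-lipin replicate 2). Tmem135, a membrane protein linked to peroxisomes, gave -0.56 ± 0.47 on its only tested probe set. The groups did not overlap on this probe set or on that of Pxmp2. The dimmer, untested probe sets of Tmem135 and Slc25a17 lay on the opposite side from the tested ones, with values given under other observations. Among the 8 tested genes, the groups separated with Ad-lipin higher for 2 and with Ad-lipin lower for 1, while 5 overlapped. Such separation was found in 17.1% (Ad-lipin higher) and 15.9% (Ad-lipin lower) of all probe sets tested.

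The genes listed as enzymes that Pex5 and Pex7 deliver, outside beta-oxidation, had a median log2 difference of 0.36. Of 25 listed, 19 were tested, with 13 above 0 and 0 passing in either direction. Over all probe sets tested, 50.3% lay above 0. The median was -0.016 without GFP replicate 1. Hao1, a glycolate oxidase, read 4157 and 5071 in Ad-lipin replicates 1 and 2, against 2258 and 3786 in GFP replicates 1 and 2 (0.65 ± 0.40). Ephx2, an epoxide hydrolase, read 26521 and 26829 in the Ad-lipin arrays against 18752 and 19495 in the GFP arrays (0.48 ± 0.31), and urate oxidase, Uox, gave 0.52 ± 0.37. Both Ad-lipin arrays lay above both GFP arrays for 6 of the 19 genes and below for 2, against 17.1% and 15.9% of all probe sets tested. Hao1, Ephx2 and Uox were among the 6, as was Far1, and Hao1 stood at 0.28 without GFP replicate 1. Agxt, an aminotransferase of glyoxylate, gave 0.57 ± 0.37 with groups that overlapped (0.16 without Ad-lipin replicate 2). Far1, a reductase that makes fatty alcohols for ether lipids, read 876.8 and 875.6 in the Ad-lipin arrays against 150.5 and 617.8 in the GFP arrays (1.52 ± 1.15, with 0.50 without GFP replicate 1 and 2.54 without GFP replicate 2). That was the only tested probe set of 5 for Far1, and the rest were too dim. Of these, 1426369_at lay on the opposite side (48.3 and 14.0 in Ad-lipin against 152.6 and 190.9 in GFP). So did 1435315_s_at (34.6 and 37.6 against 62.6 and 143.2), while 1426370_at and 1453550_a_at overlapped between groups. The 13 tested beta-oxidation enzymes, of 15 names listed, had a median of 0.34 (0.64 without GFP replicate 1). Of these, 10 lay above 0, against 50.3% of all probe sets tested, and 0 passed in either direction. The Ad-lipin arrays were both above both GFP arrays for 7 of these 13 and both below for 1, and 4 had an unadjusted p under 0.05, beside 17.1%, 15.9% and 4.39% of all probe sets tested.

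**Figure D4:**
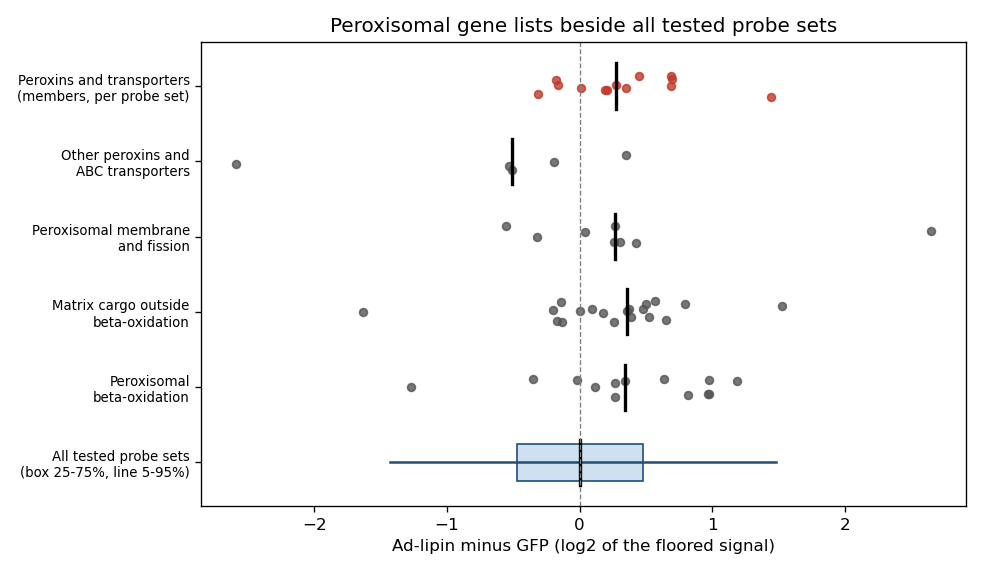
Log2 difference, Ad-lipin minus GFP (x axis), for the 13 tested peroxin and transporter probe sets (red), with black bars at the medians. Grey points are the brightest tested probe set of each gene in 4 other lists of mostly peroxisomal genes. These lists include Abcd4, which works in lysosomes, and the matrix cargo list includes Far1, a membrane protein. The bottom row gives all tested probe sets as a box (25th to 75th percentile, -0.47 to 0.48) on a line (5th to 95th percentile, -1.43 to 1.48). All 13 red points lie inside the 5th to 95th percentile line.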

How the data were processed

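The deposited values are linear intensity values made by the authors with MAS5, per the submitters' processing notes; neither its version nor the scaling target is stated. On all 4 arrays the trimmed mean (2%) was 1501, so the signals were used as deposited. Of 22690 probe sets, 64 were controls and left out of the test. Log2 was taken after raising signals under 119.5, the 20th percentile, to that floor, which understates fold changes of dim genes. Probe sets whose mean reached the 40th percentile were tested, 13576 in all. The test was limma 3.58.1 under R 4.3.3, with group as the model term, lmFit, and eBayes using an intensity trend (2 residual and 12.7 prior degrees of freedom). P-values are two-sided and Benjamini-Hochberg adjusted across the whole tested table, and calls needed an adjusted p under 0.05. The fit was checked on simulated data. Symbols came from the platform annotation (20380 probe sets with 1 symbol, 691 with several, 1555 not listed), and 20351 matched the RefSeq gene table by Entrez identifier. Named are all probe sets of the 9 genes, Lpin1, Ppara and, from the lists other than beta-oxidation, whose genes are counted but not named, up to 5 genes by smallest p, each with its brightest tested probe set. The genes, the lists and the motifs were chosen with earlier results of these data known. Alternatives were other normalizations, floors, filters, moderation and thresholds, the replicate number as a block, and leaving out each array. No detection calls were used, so signal over background is not known. Coordinates are given only for the printed windows, with the build of those windows, because the array values name no genome build.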

Additional observations from a re-analysis of the deposited data

How the results depend on the processing

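No peroxin or transporter probe set passed at an adjusted p of 0.05 under any of the alternatives, by limma. The filter at the 60th percentile left 11 of the 13 to test. Over all probe sets tested, the count of calls was 52 with the replicate number as a block (34 higher, 18 lower), against 0 without it. Ppara was among them and no peroxin or transporter was, and with the block the lowest adjusted p of the 13 was 0.840. Without 1 array at a time the count over all probe sets ran from 0 to 13, the highest without Ad-lipin replicate 1. Those without either Ad-lipin replicate, and the block, took the spread from the intensity trend alone, since the prior degrees of freedom were infinite. The replicate numbers are not stated to pair the samples: the deviations of Ad-lipin replicate 1 and GFP replicate 1 from their group means correlated at 0.028. The median of the 13 log2 differences ran from -0.025 to 0.54 with an array left out. Of 154 values of the 13 probe sets under alternatives, 11 turned sign, 10 of them with an array left out. The remaining one was the dimmer Pex16 probe set, at -0.086 with the floor at the 30th percentile. The others, as ranges with an array left out, were Pex3 at -0.47 to 0.88 and -0.66 to 0.68, Pex5 (dimmer) at -0.26 to 1.15, Pex16 (dimmer) at -1.52 to 2.21, Pex19 (brighter) at -0.025 to 0.58, Pex11a (dimmer) at -0.50 to 0.18 and Abcd3 at -0.074 to 0.46. Outside the set, sign changes occurred for the brighter Lpin1 probe set (-0.57 to 0.95), Pex13 (-0.53 to 0.14), Pxmp4 (-0.14 to 0.67) and Fis1 (-0.0092 to 0.62).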

Other observations

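Several peroxisomal genes had further probe sets too dim to test, chosen here after their values were seen. The dimmer Pex13 probe set (1422472_at) read 801.8 and 510.8 in Ad-lipin replicates 1 and 2, against 16.8 and 35.8 in GFP replicates 1 and 2, while the brighter one overlapped between groups. The dimmer Tmem135 probe set (1452074_at) read 660.0 and 448.8 in the Ad-lipin arrays against 22.5 and 227.9 in the GFP arrays, the opposite side from its brighter probe set. The dimmer Slc25a17 probe set (1450353_at) read 46.1 and 89.6 in the Ad-lipin arrays against 97.0 and 1272.5 in the GFP arrays, also the opposite side from the brighter one.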
